A study of Mus musculus with 9 samples.

Results

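The 10 genes described here encode the membrane carriers that move bile acids and other organic anions through the mouse hepatocyte, and they were taken by gene symbol as 10 of the 55253 symbols in the deposited table of scaled read counts. They fall into 5 genes of uptake from blood at the sinusoidal membrane (Slc10a1, Slco1a1, Slco1a4, Slco1b2 and Slco2b1), 3 genes of export into the bile canaliculus (Abcb11, Abcb4 and Abcc2) and 2 genes of export back to blood at the basolateral membrane (Abcc3 and Abcc4). Liver RNA came from 9 male C57Bl/6J mice. The 5 WD+alcohol mice, aged 10 weeks when feeding began, ate a Western diet and drank sweetened water with 10% alcohol over 23 weeks. The 4 control mice ate chow and drank tap water, and their titles give the same 23 weeks. The starting age is stated once, with the WD+alcohol feeding, and not separately for controls. The labels name no engineered allele. The effects of the diet, the alcohol and the sweetener cannot be told apart, because no group received only one of them. RNA of the whole liver was read from transcript 3′ ends, so a TMM-scaled level in CPM does not scale with transcript length. How evenly the 3′ ends of different genes were captured was not tested. Ranks, sums and shares across genes are therefore given in CPM and may differ from those of transcript numbers.

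Bile acids circulate between liver and gut. Hepatocytes take them up from sinusoidal blood, mostly through the sodium-dependent carrier Ntcp (Slc10a1) and the sodium-independent Oatp carriers (Slco genes), which also take up bilirubin, steroid conjugates and drugs. Bile salts then leave across the canalicular membrane through the bile salt export pump Bsep (Abcb11), together with phosphatidylcholine flipped by Abcb4 and conjugated bilirubin and glutathione conjugates pumped by Abcc2, while Abcc3 and Abcc4 carry conjugates and bile acids back into blood and are known to be raised when bile flow is impaired.

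Reads in genes numbered 3635860 to 6643645 in the WD+alcohol libraries and 5050763 to 5910285 in the control libraries, and 1 read was worth 0.152 to 0.27 CPM. All 10 transporters passed the filter of a mean of at least 1 CPM over the 9 libraries. Abundant hepatocyte mRNAs defined the tissue in both groups, with a summed level of 10 hepatocyte markers of 39664 to 53164 CPM in WD+alcohol livers and 54384 to 79144 CPM in control livers. Alb made up much of these sums, at 18876 ± 3597 CPM in WD+alcohol livers and 33497 ± 6566 CPM in control livers (SD, n = 5 and 4). Of these 10 markers 2 fell (Alb and Apoa1) and 9 had a negative log2 fold change, and the call of Alb ended in 14 of 22 alternatives. Trf, the 1 marker with a positive log2 fold change, averaged 5607 ± 459 CPM in WD+alcohol livers and 4712 ± 920 CPM in control livers and was not called. The 8 periportal markers all had a negative log2 fold change, 1 fell by limma-trend and edgeR (Pck1), 5 were called lower by DESeq2, and 7 had an unadjusted limma-trend p under 0.05, with sums of 2355 to 3681 CPM in WD+alcohol livers and 3832 to 5358 CPM in control livers. Of 9 pericentral markers 1 rose (Glul) and 1 fell (Cyp1a2), 5 had a positive log2 fold change, and the sums were 3677 to 6453 CPM in WD+alcohol livers and 4094 to 4555 CPM in control livers. In whole-liver RNA, fewer cells of a type and less RNA per cell cannot be told apart, and the part of hepatocyte content in the transporter results was not tested.

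Of the 10 transporters, 1 fell (Slco1a1) and 1 rose (Abcc3) at an adjusted p under 0.05 (limma-trend on log2(CPM + 1), Benjamini-Hochberg over 14759 tested genes), and 8 were not called. Over all tested genes 2.29% were called, 1.61% higher and 0.678% lower, so that 2 of 10 is more than the background share, in a set of only 10 genes chosen with earlier results known. The median log2 fold change of the 10 genes was -0.02 (-0.001 over all tested genes), 6 had a negative and 4 a positive log2 fold change, and 4 had an unadjusted p under 0.05 (12.2% of all tested genes). The groups did not overlap for the same 2 genes, against 5.34% of all tested genes (3.34% higher). On reads recovered from the table, edgeR and DESeq2 each called these 2 transporters and no other of the 10, against 2.13% of all genes by edgeR (0.630% lower) and 3.69% by DESeq2 (2.51% higher, 1.19% lower). With scaling on 27 hepatocyte marker genes 16.7% of genes were called (16.2% higher, 0.521% lower), the median of all genes moved to 0.34, and 4 transporters were called, Slco1a1 lower and Abcc3, Abcc4 and Abcb4 higher. Relative to that median their log2 fold changes were -3.49 for Slco1a1, 0.82 for Abcc3, 0.38 for Abcc4 and 0.32 for Abcb4.

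**Figure D1:**
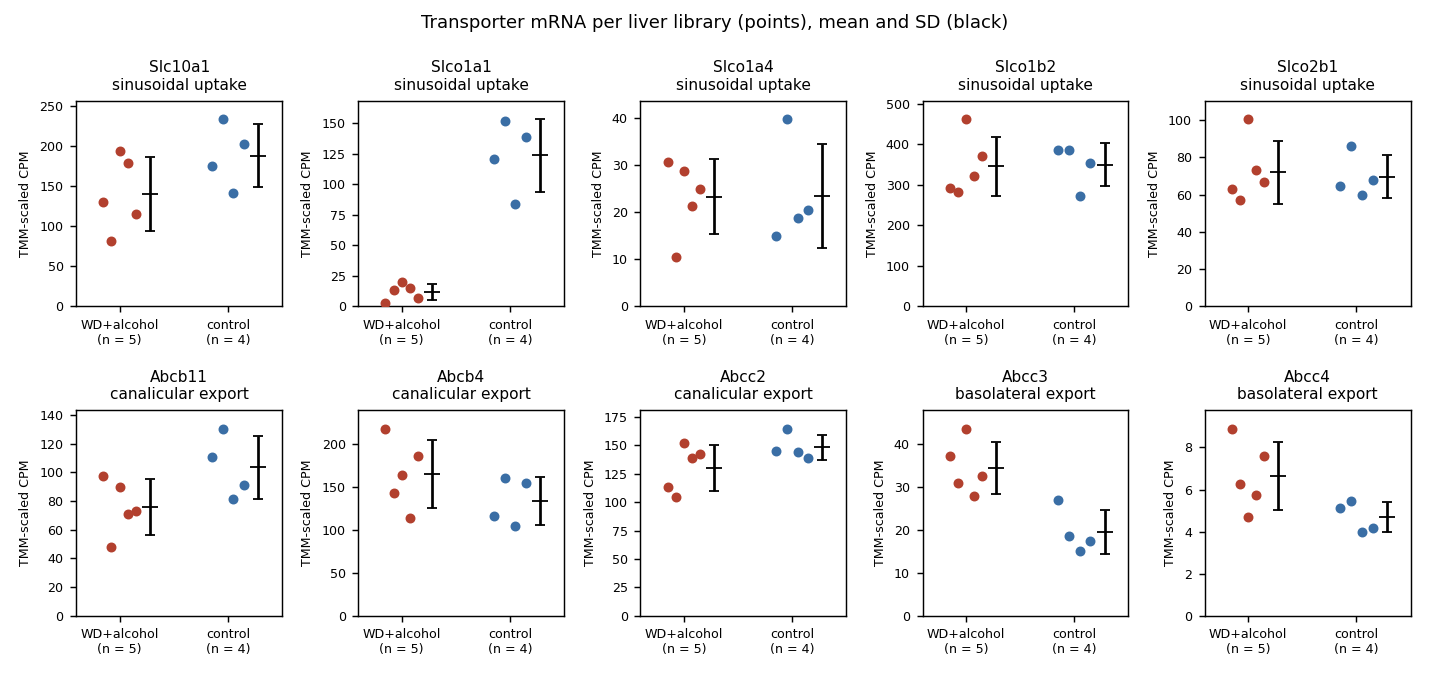
Level of each transporter mRNA in TMM-scaled CPM (vertical axes, each starting at 0) in WD+alcohol livers (red points, left) and control livers (blue points, right), 1 point per library, with the mean and SD of each group in black. Slco1a1 lies at 2.70 to 19.9 CPM in WD+alcohol livers and 83.4 to 151 CPM in control livers, Abcc3 at 27.9 to 43.5 CPM in WD+alcohol livers and 15.1 to 26.9 CPM in control livers, and the groups overlap for the other 8 genes.

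**Figure D2:**
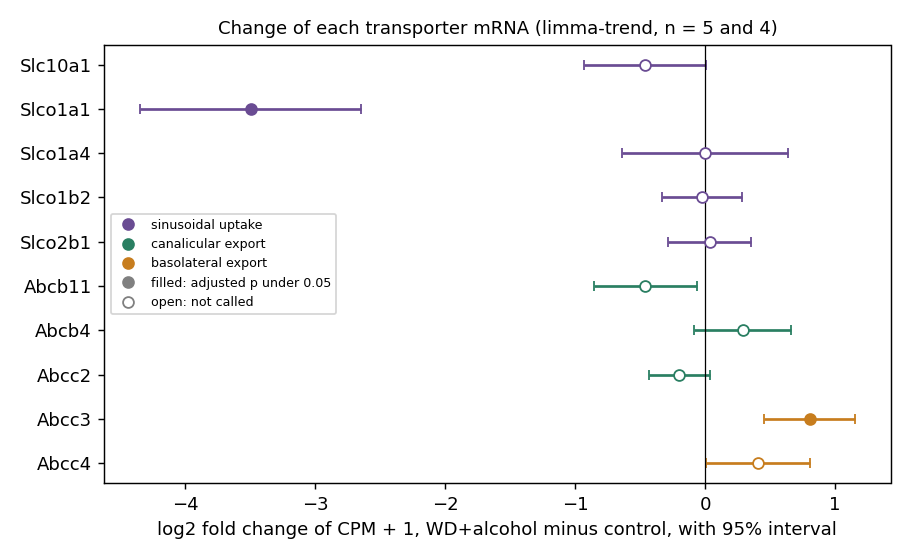
Log2 fold change of CPM + 1, WD+alcohol minus control, with its 95% interval (horizontal axis) for each transporter (vertical axis), coloured by role and filled where the adjusted p was under 0.05. Slco1a1 stands alone at -3.50 and Abcc3 lies at 0.80, while 6 of the 8 open points have intervals that include 0.

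Slco1a1, encoding Oatp1a1, a sodium-independent uptake carrier with male-biased expression in mouse liver, was the transporter with the largest change. It lies in a run of Slco genes, and its 2 nearest neighbours measured here at more than 1 CPM are Slco1a4 and Slco1b2, which were not called. The start regions of these 3 neighbouring genes are shown because the genes lie together and changed unequally. They are RefSeq sequences of build GRCm38.p6, an older build than the one named for the deposited values, from 250 bases before to 50 bases after the start, 5′ to 3′ in the direction of transcription. Capitals mark AGGTCA, the half-site of nuclear receptors, on either strand (TGACCT where it lies on the other strand). The windows are chr6:141946913-141947212, minus strand, for Slco1a1, chr6:141856171-141856470, minus strand, for Slco1a4, and chr6:141629268-141629567, plus strand, for Slco1b2.
Slco1a1: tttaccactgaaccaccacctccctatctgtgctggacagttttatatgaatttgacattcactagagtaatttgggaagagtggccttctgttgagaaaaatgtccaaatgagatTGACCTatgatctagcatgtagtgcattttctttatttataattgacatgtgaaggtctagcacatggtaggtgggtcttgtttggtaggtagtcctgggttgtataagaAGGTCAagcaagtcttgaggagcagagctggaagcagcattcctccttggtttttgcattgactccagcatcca
Slco1a4: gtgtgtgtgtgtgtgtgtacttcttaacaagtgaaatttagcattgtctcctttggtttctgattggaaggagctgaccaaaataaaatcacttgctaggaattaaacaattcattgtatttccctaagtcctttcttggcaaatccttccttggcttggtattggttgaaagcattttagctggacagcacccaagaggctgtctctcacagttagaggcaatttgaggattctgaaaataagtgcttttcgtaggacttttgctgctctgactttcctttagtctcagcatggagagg
Slco1b2: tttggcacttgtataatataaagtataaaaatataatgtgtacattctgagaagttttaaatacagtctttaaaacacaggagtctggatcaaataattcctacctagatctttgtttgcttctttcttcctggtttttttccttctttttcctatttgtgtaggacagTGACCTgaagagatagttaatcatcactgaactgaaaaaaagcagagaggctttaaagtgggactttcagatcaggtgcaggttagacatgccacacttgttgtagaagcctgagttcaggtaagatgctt

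The Slco1a1 window holds 2 copies of AGGTCA, the Slco1b2 window 1 and the Slco1a4 window 0, and 16.3% of 32851 promoter windows of the same length hold at least 1. The STAT element TTCNNNGAA, which reads the same on both strands, occurs in the Slco1b2 window and in neither of the other two, and in 8.30% of all windows. The antioxidant response core TGACNNNGC (12.4% of all windows, both strands searched) is in none of these 3 windows, and the HNF1 half-site GTTAAT (7.10%, both strands searched) is in the Slco1b2 window alone among the 3. Windows were found for 9 of the 10 transporters. Abcc3 had none and was not searched. Both windows of Abcc4 and that of Abcc2 hold TGACNNNGC, and TTCNNNGAA also occurs in windows of Slc10a1, Slco2b1 and Abcc4. AGGTCA also occurs in the windows of Abcb11 and Abcc2 and in 1 of 2 windows of Slc10a1. These matches describe letters in a window and not bound sites.

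Slco1a1 was read at 2.70, 13.3, 19.9, 15.3 and 7.01 CPM in WD+alcohol livers 1 to 5, against 121, 151, 83.4 and 139 CPM in control livers 1 to 4. Every WD+alcohol liver lay below every control liver, with a wide gap between the highest WD+alcohol value and the lowest control value. The mean was 11.6 ± 6.81 CPM (SD, n = 5) in WD+alcohol livers and 124 ± 29.6 CPM (SD, n = 4) in control livers, 10.6-fold lower by the ratio of means. On the log2 scale the change was -3.50 ± 0.39 (SE), with a limma-trend adjusted p of 0.000344, and lower in 5 of 5 livers. The highest WD+alcohol liver held 7.38 times the level of the lowest, and the highest control liver 1.82 times the level of the lowest. The lowest value came from WD+alcohol 1, which had the smallest read total and held 10 Slco1a1 reads. Without that library the log2 fold change was -3.11 (limma-trend adjusted p = 8.914e-05).

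The fall of Slco1a1 stood beside a fall of other male-biased hepatocyte genes, a list that also reads growth hormone action on the liver. Of 10 tested genes of this list, Slco1a1 not counted, 8 fell, 0 rose, and the median log2 fold change was -1.58. Over all tested genes 0.678% were called lower and the median was -0.001. The list was chosen with earlier results of these data known. Their summed level was 2485 to 3469 CPM in WD+alcohol livers and 5974 to 10584 CPM in control livers. Much of that gap was Serpina1e, at 779 ± 708 CPM in WD+alcohol livers and 5393 ± 1794 CPM in control livers (SD, n = 5 and 4). The other abundant gene of the list, Mup20, was not called, at 1276.5 ± 539 CPM in WD+alcohol livers and 1283 ± 234 CPM in control livers (limma-trend adjusted p = 0.934). The steroid dehydrogenase Hsd3b5 averaged 1.78 ± 2.04 CPM in WD+alcohol livers and 80.2 ± 43.3 CPM in control livers (SD, n = 5 and 4), and Selenbp2 averaged 13.7 ± 6.29 CPM in WD+alcohol livers and 110 ± 40.4 CPM in control livers. The oxysterol hydroxylase Cyp7b1 averaged 32.6 ± 12.1 CPM in WD+alcohol livers and 115 ± 16.7 CPM in control livers, and the fatty acid elongase Elovl3 averaged 31.5 ± 13.1 CPM in WD+alcohol livers and 101 ± 25.4 CPM in control livers. Of 10 female-biased genes 3 were tested and 2 rose (Cyp2b9 and Fmo2, the second losing its call in 7 of 22 alternatives), and Sult2a1 and Cyp3a41a had no reads. The growth hormone receptor gene Ghr averaged 237 ± 41.5 CPM in WD+alcohol livers and 272 ± 41.5 CPM in control livers, and was not called (limma-trend adjusted p = 0.586). Whether these genes share a cause with Slco1a1 was not tested.

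Slco1a4, encoding Oatp1a4, the uptake carrier next to Slco1a1, was read at 30.7, 10.5, 28.7, 21.4 and 24.8 CPM in WD+alcohol livers 1 to 5, against 14.99, 39.7, 18.8 and 20.5 CPM in control livers. The groups overlapped widely, with the lowest value in WD+alcohol 2 and the highest in control 2. The log2 fold change was -0.002 (95% interval -0.64 to 0.64), an interval wide enough to hold a moderate change in either direction. Slco1b2, encoding Oatp1b2, the liver-specific carrier, had the highest level of the 10 genes in both groups. It was read at 292, 283, 462, 321 and 370 CPM in WD+alcohol livers, against 387, 387, 273 and 353 CPM in control livers. Its log2 fold change was -0.03 (95% interval -0.34 to 0.28). Slco1a4 and Slco1b2 were not called, and the sign of both log2 fold changes turned positive when all libraries were rescaled to 1 total and with scaling on hepatocyte marker genes. Both settings also raised the median of all genes. Relative to that median Slco1a4 was at 0.0014 and 0.0123 in these settings, and Slco1b2 at -0.0213 and 0.004.

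Ratios within a library, which do not depend on the scaling of that library apart from the pseudocount, put these neighbours against each other. The log2 ratio of Slco1a4 to Slco1a1 was 3.10, -0.31, 0.51, 0.46 and 1.69 in WD+alcohol livers, against -2.93, -1.91, -2.09 and -2.70 in control livers. Slco1a4 thus exceeded Slco1a1 in 4 of the 5 WD+alcohol livers and in no control liver. The difference in mean log2 ratio was 3.50 (exact two-sided permutation test, p = 0.0159, the smallest that 5 against 4 libraries allow; adjusted p = 0.0265 over 5 ratios). The log2 ratio of Slco1a1 to Slco1b2 was -4.99 ± 0.90 (SD, n = 5) in WD+alcohol livers and -1.52 ± 0.20 (SD, n = 4) in control livers, and its difference of -3.47 had the same exact permutation p of 0.0159 (adjusted p = 0.0265). Both ratios hold the same Slco1a1 values, so they restate its fall against flat neighbours and are no separate support for it. Among the reads of the 4 Slco members, Slco1a1 took 2.53 ± 1.35% in WD+alcohol livers and 21.6 ± 2.13% in control livers, and Slco1b2 took 76.4 ± 1.86% in WD+alcohol livers and 61.9 ± 3.22% in control livers (SD, n = 5 and 4).

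**Figure D3:**
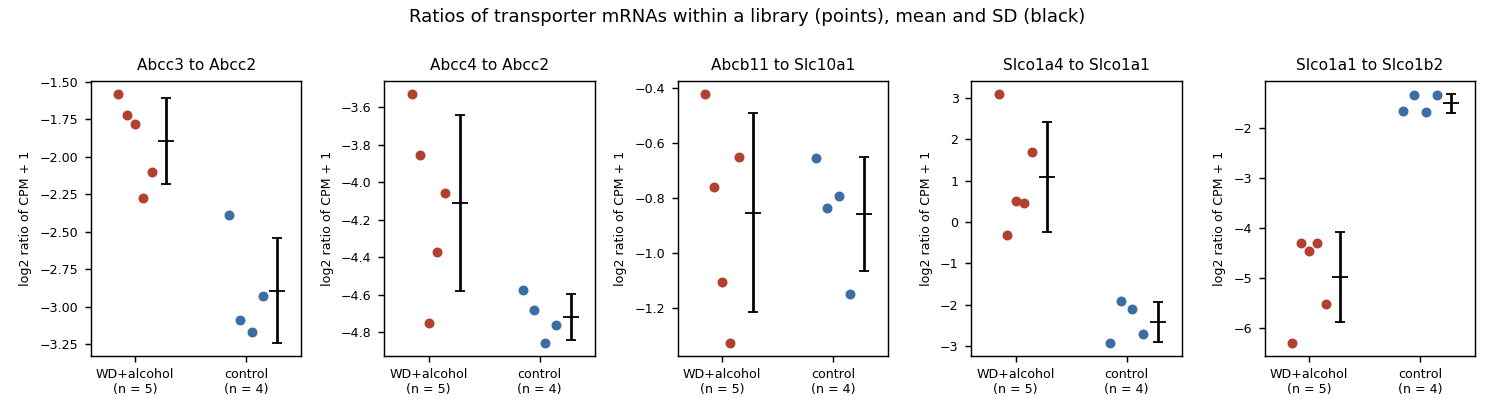
Log2 ratio of CPM + 1 of 2 transporters within a library (vertical axes, each with its own range) in WD+alcohol livers (red, left) and control livers (blue, right), 1 point per library, with the mean and SD in black. The groups are apart for Abcc3 to Abcc2, Slco1a4 to Slco1a1 and Slco1a1 to Slco1b2, and overlap for Abcc4 to Abcc2 and Abcb11 to Slc10a1.

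Slco2b1, encoding Oatp2b1, a broad organic anion carrier that is also transcribed by tissue macrophages in the mouse, was read at 62.8, 57.1, 100.4, 73.0 and 66.9 CPM in WD+alcohol livers, against 64.6, 86.1, 60.0 and 67.8 CPM in control livers. The groups overlapped, with WD+alcohol 3 highest and WD+alcohol 2 lowest of all 9. The log2 fold change was 0.03 (95% interval -0.29 to 0.35), and it was -0.09 without WD+alcohol 3 and -0.03 without control 3. Of 11 Kupffer cell and macrophage markers 9 rose and 0 fell, all 11 had reads, and their summed level was 479 to 827 CPM in WD+alcohol livers and 123 to 251 CPM in control livers. Cd5l, a secreted macrophage protein, averaged 155 ± 38.0 CPM in WD+alcohol livers and 26.0 ± 7.14 CPM in control livers (SD, n = 5 and 4). How much of the Slco2b1 signal came from macrophages was not tested.

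Slc10a1, encoding Ntcp, was read at 131, 81.4, 194, 180 and 115 CPM in WD+alcohol livers, against 175, 234, 141 and 203 CPM in control livers. WD+alcohol 1, 2 and 5 lay below all controls, and WD+alcohol 3 and 4 lay within the control range. The mean was 140 ± 46.4 CPM (SD, n = 5) in WD+alcohol livers and 188 ± 39.4 CPM (SD, n = 4) in control livers. Its log2 fold change was -0.47 (95% interval -0.94 to 0.003; limma-trend adjusted p = 0.416), so Slc10a1 was not called. It was -0.29 without WD+alcohol 2 and -0.0965 with scaling on hepatocyte marker genes, which moved the median of all genes to 0.34. Relative to that median Slc10a1 was at -0.44, against -0.47 relative to the median with the deposited scaling.

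Abcb11, the bile salt export pump and the canalicular partner of Slc10a1 in moving bile salts across the cell, was read at 97.6, 47.7, 89.7, 71.1 and 73.1 CPM in WD+alcohol livers, against 111, 130, 81.2 and 91.1 CPM in control livers. All 5 WD+alcohol livers lay below the control mean of 103 CPM, but WD+alcohol 1 and 3 lay inside the control range. The log2 fold change was -0.46 (95% interval -0.86 to -0.06) with a limma-trend adjusted p of 0.299, which did not pass the threshold over all genes. It was -0.31 without WD+alcohol 2 and -0.0922 with scaling on hepatocyte marker genes, which moved the median of all genes to 0.34. Relative to that median Abcb11 was at -0.43, against -0.46 relative to the median with the deposited scaling. The log2 ratio of Abcb11 to Slc10a1 was -0.85 ± 0.36 (SD, n = 5) in WD+alcohol livers and -0.86 ± 0.21 (SD, n = 4) in control livers. This difference of 0.01 was within the spread of the libraries (exact two-sided permutation test, p = 0.937; adjusted p = 0.937), and over the 9 repeats that each left out 1 library it ran from -0.10 to 0.12.

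Abcb4, the phosphatidylcholine floppase that supplies bile with phospholipid, was read at 218, 143, 164, 114 and 187 CPM in WD+alcohol livers, against 116, 161, 105 and 155 CPM in control livers. WD+alcohol 1, 3 and 5 lay above all controls and the other 2 within the control range. A log2 fold change of 0.29 (95% interval -0.08 to 0.66; limma-trend adjusted p = 0.558) left Abcb4 not called, and the value was 0.18 without WD+alcohol 1 or without control 3 and 0.66 with scaling on hepatocyte marker genes. With that scaling Abcb4 was at 0.32 relative to the median of all genes. Abcc2, the canalicular pump of bilirubin conjugates, was read at 113, 104, 152, 139 and 142 CPM in WD+alcohol livers, against 145, 165, 144 and 139 CPM in control livers. It had the narrowest spread of the 10 genes in both groups, with 1.46-fold between the highest and lowest WD+alcohol liver and 1.184-fold between controls. Its log2 fold change was -0.20 (95% interval -0.43 to 0.04; limma-trend adjusted p = 0.508), and WD+alcohol 1 and 2 held the 2 lowest values. Without WD+alcohol 2 it was -0.12, and with scaling on hepatocyte marker genes it turned to 0.17. Relative to the median of all genes with that scaling Abcc2 stayed at -0.17, against -0.20 with the deposited scaling. Of the 3 canalicular genes 0 were called by limma-trend, edgeR or DESeq2, and at an unadjusted p under 0.05 Abcb11 alone passed.

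Abcc3, encoding the basolateral pump Mrp3, which exports glucuronide conjugates and bile acids into blood, was read at 37.2, 30.9, 43.5, 27.9 and 32.4 CPM in WD+alcohol livers, against 26.9, 18.5, 15.1 and 17.4 CPM in control livers. All 5 WD+alcohol livers lay above all 4 controls, with WD+alcohol 4 just above control 1. The mean was 34.4 ± 6.13 CPM (SD, n = 5) in WD+alcohol livers and 19.5 ± 5.12 CPM (SD, n = 4) in control livers, 1.76-fold higher by the ratio of means. The log2 fold change was 0.80 ± 0.16 (SE; limma-trend adjusted p = 0.0179), and the adjusted p was 0.0323 with edgeR and 0.00146 with DESeq2. The call ended without control 3 (log2 fold change 0.70, limma-trend adjusted p = 0.0544) and without control 4 (0.76, 0.0542). Abcc3 is also transcribed by bile duct cells. Of 8 cholangiocyte markers 4 were tested and 0 were called by limma-trend, edgeR or DESeq2, with 2 positive and 2 negative log2 fold changes. Epcam alone had an unadjusted limma-trend p under 0.05, and it was higher (log2 fold change 0.53, 3.02 CPM in WD+alcohol and 1.75 CPM in control livers). All 8 had reads, and their summed level was 213 to 258 CPM in WD+alcohol livers and 218 to 236 CPM in control livers. Most of these sums was Spp1 (124 and 118 CPM) and Sox9 (101 and 104 CPM), so they say little about the other markers. The part of bile duct cells in the Abcc3 result was not tested.

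Abcc4, encoding Mrp4, a basolateral pump of bile acids with glutathione and of cyclic nucleotides, was the least abundant of the 10 genes in both groups. It was read at 8.89, 6.26, 4.69, 5.76 and 7.61 CPM in WD+alcohol livers, against 5.11, 5.46, 4.00 and 4.17 CPM in control livers. All 5 WD+alcohol values were above the control mean of 4.68 CPM, WD+alcohol 3 barely so, and the groups overlapped. For Abcc4 the log2 fold change was 0.41 (95% interval 0.01 to 0.81; limma-trend adjusted p = 0.397), so it was not called, and it was 0.72 with scaling on hepatocyte marker genes. With that scaling Abcc4 was at 0.38 relative to the median of all genes.

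Basolateral and canalicular pumps of the same ABCC family share substrates, and their ratio was compared within libraries. The log2 ratio of Abcc3 to Abcc2 was -1.58, -1.72, -1.78, -2.28 and -2.10 in WD+alcohol livers, against -2.39, -3.09, -3.17 and -2.93 in control livers. Every WD+alcohol ratio was above every control ratio, by a difference in means of 1.0015 (exact two-sided permutation test, p = 0.0159, the smallest possible; adjusted p = 0.0265). The log2 ratio of Abcc4 to Abcc2 was -4.11 ± 0.47 (SD, n = 5) in WD+alcohol livers and -4.72 ± 0.12 (SD, n = 4) in control livers. This difference of 0.61 had an exact permutation p of 0.0476 and missed the threshold after adjustment over the 5 ratios (adjusted p = 0.0595). Whether Abcc3 and Abcc4 differed from each other in their change was not tested.

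Summed by role, the 5 uptake genes reached 593 ± 134 CPM in WD+alcohol livers and 755 ± 133 CPM in control livers. Without Slco1a1 the other 4 uptake genes summed to 581 ± 130 CPM in WD+alcohol livers and 632 ± 104 CPM in control livers. The 3 canalicular genes summed to 371 ± 58.0 CPM in WD+alcohol livers and 386 ± 52.4 CPM in control livers. For the 2 basolateral genes the sums were 41.0 ± 6.09 CPM in WD+alcohol livers and 24.2 ± 5.57 CPM in control livers (SD, n = 5 and 4 throughout). Only the basolateral sums were apart, at 33.6 to 48.2 CPM in WD+alcohol livers and 19.1 to 32.0 CPM in control livers. Most of that sum was Abcc3, with a mean of 34.4 CPM in WD+alcohol livers and 19.5 CPM in control livers, and Abcc4 alone overlapped between the groups. On the log2 scale the mean ratio to the control mean ran from -1.16 to -0.23 for uptake genes, from -0.49 to 0.09 for canalicular genes and from 0.39 to 0.87 for basolateral genes over the 5 WD+alcohol livers. Over the 4 control livers it ran from -0.33 to 0.39, from -0.23 to 0.265 and from -0.25 to 0.29. The groups thus overlapped for uptake and canalicular genes. Without Slco1a1 the ratio of uptake genes ran from -0.68 to 0.35 in WD+alcohol livers and from -0.29 to 0.41 in control livers. These sums describe the members and carry no test.

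**Figure D4:**
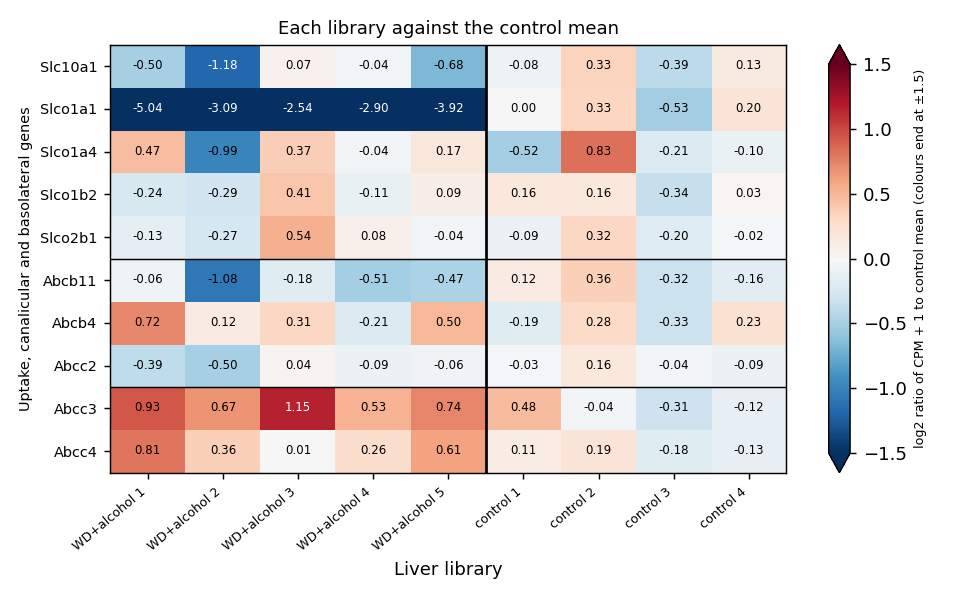
Log2 ratio of CPM + 1 in each library to the control mean (colour and printed value; colours end at 1.5 in either direction) for each transporter (rows, divided into uptake, canalicular and basolateral genes) and library (columns, WD+alcohol left of control). The Slco1a1 row is at -2.54 or lower in all 5 WD+alcohol libraries, the Abcc3 row is between 0.53 and 1.15, and control 2 and control 3 differ across most rows.

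Some livers were high or low across most transporters. Control 2 had the highest control value for 8 of the 10 genes and control 3 the lowest for 8. WD+alcohol 2 had the lowest value of its group for 6 genes and WD+alcohol 3 the highest for 6. In WD+alcohol 2 the log2 ratio to the control mean was -0.99 for Slco1a4 and -1.08 for Abcb11, yet 0.67 for Abcc3. Slco1a1 ranked the ninth of 10 by mean level in WD+alcohol livers and the fifth in control livers. Its range in WD+alcohol livers overlapped those of Slco1a4 above it and Abcc4 below it, and it lay below Abcc4 in WD+alcohol 1 and 5, so its place there is not resolved. Slco1b2 led in both groups with a range apart from the next gene. In control livers the ranges of Slc10a1, Abcc2, Abcb4, Slco1a1 and Abcb11 each overlapped that of the next gene down, so their order is not resolved.

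Transporters beyond the 10 moved in both directions. Of 9 other Slco genes 3 were tested and 1 fell, the prostaglandin carrier Slco2a1, at 16.4 ± 3.24 CPM in WD+alcohol livers and 36.5 ± 6.99 CPM in control livers (limma-trend log2 fold change -1.11 ± 0.16, SE, adjusted p = 0.00240). Slco1a6, Slco1c1, Slco4c1 and Slco6d1 had no reads, and Slco1a5 was read at no more than 0.76 CPM. Of 13 other bile acid, organic anion and cation carriers 10 were tested and 0 were called by limma-trend or edgeR, with 3 at an unadjusted p under 0.05 and 2 called by DESeq2. Slc51a and Slc51b, which encode the basolateral bile acid carrier Ost alpha and beta, were at or near 0, with at most 0.40 CPM and 1.89 CPM in any library.

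Of 8 other ABC exporters 2 rose and 0 fell. Abcg5, a subunit of the canalicular sterol exporter, averaged 56.1 ± 14.5 CPM in WD+alcohol livers and 27.99 ± 5.01 CPM in control livers, with a log2 fold change of 0.96 ± 0.17 (SE; limma-trend adjusted p = 0.00798). Abcb1a, a P-glycoprotein gene, averaged 5.66 ± 1.72 CPM in WD+alcohol livers and 2.11 ± 0.69 CPM in control livers (limma-trend adjusted p = 0.0208), and its call ended without WD+alcohol 5, control 1 or control 3 (0.0501 to 0.0637) and with no filter (0.0633). Of 15 genes of membrane placement and canalicular support 1 fell, Tmem30a, a flippase subunit, at 103 ± 2.36 CPM in WD+alcohol livers and 128 ± 9.69 CPM in control livers (limma-trend adjusted p = 0.0436). Tmem30a lost its call in 12 of 22 alternatives, and in another its log2 fold change turned to 0.07, with scaling on hepatocyte marker genes. Of 16 tested transcription regulators and hormone signalling genes that act on these transporters 0 were called by limma-trend, edgeR or DESeq2, and 2 had an unadjusted p under 0.05 (Hnf4a and Ppara). The bile acid receptor Nr1h4 (FXR) averaged 53.3 ± 5.76 CPM in WD+alcohol livers and 55.2 ± 13.0 CPM in control livers, and Nfe2l2 (NRF2), known to induce Abcc3 and Abcc4, 130 ± 6.84 CPM in WD+alcohol livers and 122 ± 3.25 CPM in control livers (SD, n = 5 and 4). These are mRNA levels, and the activity of FXR and NRF2 was not measured.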

How the data were processed

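Liver RNA of 5 WD+alcohol and 4 control mice was extracted with Trizol and made into 3′ libraries with the Collibri kit, per the labels' protocols. Per the submitters' processing notes, Trim Galore 0.6.0, cutadapt 1.18, STAR, HTSeq 0.11.0, edgeR 3.28.1 and R 3.6.3 were used with build GRCm39 (mm39). Strand use and multimapping reads are not given in the sources used here. The values deposited by the authors are a signal, CPM values scaled by TMM. All positive values (100%, relative tolerance 1e-06) were whole multiples of the worth of 1 read in their column, so reads could be recovered. With limma-trend 338 genes were called, with edgeR 315 and with DESeq2 545.

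Groups came from titles, and library names tied columns to samples. Each library was taken as 1 mouse, 0 columns were left unmapped, and no 2 libraries agreed within sampling noise (smallest chi-square over degrees of freedom 5.82). The main test was limma-trend (two-sided; limma 3.58.1 under R 4.3.3), fitted to log2(CPM + 1) of the 14759 genes that averaged 1 CPM or more, and Benjamini-Hochberg adjusted p-values were read at 0.05. This scale understates changes of low genes. The 5 ratios had exact permutation tests (scipy 1.17.1). Alternatives were other pseudocounts (0.25, 5), filters and scalings, robust and weighted fits, a replicate block, fits without each library in turn, and recovered reads with edgeR 4.0.16 or DESeq2 1.42.0.

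Counting error alone puts the upper limit of 0 reads at 0.455 to 0.809 CPM (3 reads). Members and lists were chosen with earlier results of these data known. Named genes were all members, up to 4 called genes of each list by smallest p (or the most abundant), and the 2 most abundant markers of each cell type, a few of them not printed, and 1 gene that this rule names is not reported here. Slco1a5, Slc51a, Slc51b, Nr1h4, Nfe2l2 and other genes listed by name beyond this rule were chosen after their values were seen. In GENCODE M21, none of the 50-base words in the last 500 bases of coding transcripts of 8 members occurs in another gene. For Abcb4 6.76% occur in Abcb1a or Abcb1b, so a few of its reads are uncertain, and for Slc10a1 2.32% occur in other genes. Antisense genes over Slco2b1 and Abcb11 had a mean of at most 0.173 CPM.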

Additional observations from a re-analysis of the deposited data

Results flagged for a closer look

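Among 82 groups of libraries (each named gene and ratio in each group), 3 held 1 library far from the rest by Dixon's test, and chance flags about 1 in 20 such groups. Slco2a1 in WD+alcohol livers was lowest in WD+alcohol 2 at 10.8 CPM, with the other 4 at 16.4 to 18.5 CPM. The endothelial marker Pecam1 was highest in WD+alcohol 2 at 44.0 CPM, with the other WD+alcohol livers at 39.0 to 39.98 CPM, and highest among controls in control 4 at 39.6 CPM, with the others at 26.4 to 28.3 CPM. No group of a transporter among the 10 was far from the rest in this way.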

How the results depend on the processing

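The fall of Slco1a1 kept its sign and its call in all 22 alternatives, with log2 fold changes of -3.74 to -3.03 (adjusted p 2.992e-09 to 0.0188). Abcc3 kept its sign in all 22 and its call in 19. With scaling on hepatocyte marker genes the median of all genes moved to 0.34, higher genes made up 96.9% of calls against 70.4%, and 2395 genes were higher (16.2%). There 3 transporters were called higher (Abcc3 at 1.16, Abcc4 at 0.72 and Abcb4 at 0.66, or 0.82, 0.38 and 0.32 relative to that median), and log2 fold changes turned to 0.35 for Slco1a4, 0.34 for Slco1b2, 0.17 for Abcc2, 0.0708 for Tmem30a, 0.17 for Ghr, 0.33 for Sox9, 0.31 for Kdr and 0.30 for Col1a1. Relative to that median Slco1a4 was at 0.0123, Slco1b2 at 0.004 and Abcc2 at -0.17. With all libraries rescaled to 1 total 365 genes were higher, and Slco1a4 (0.0506), Slco1b2 (0.028), Sox9 (0.0149) and Kdr (0.0022) turned positive. The median of all genes was 0.049 there. Slco1a4 was 0.0009 with a pseudocount of 5 and 0.16 with array weights. DESeq2 called 370 genes higher and 175 lower.

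Leaving out 1 library gave 139 to 264 genes higher and 59 to 123 lower (139 and 62 without WD+alcohol 5, 148 higher without control 1, 59 lower without control 2), and 0 to 1 transporter higher and 1 lower. The log2 fold change then ran from -0.18 to 0.27 for Slco1a4, -0.14 to 0.0385 for Slco1b2, -0.091 to 0.14 for Slco2b1, -0.033 to 0.18 for Cyp2e1 and -0.19 to 0.10 for Kdr. The ratio differences ran from 0.91 to 1.17 (Abcc3 to Abcc2), 0.46 to 0.77 (Abcc4 to Abcc2, permutation p up to 0.107) and -0.10 to 0.12 (Abcb11 to Slc10a1).

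Livers shared only a replicate number. Deviations of same-numbered livers correlated at -0.31 to -0.01 over genes, which showed no pairing by number. With only 4 such pairs this check cannot exclude a pairing. With the replicate block 76 genes were higher and 36 lower, 0 transporters were higher (Abcc3 0.82, adjusted p = 0.0964), Slco2a1, Abcg5, Abcb1a and Tmem30a were not called (adjusted p 0.0549 to 0.356), and the ratio differences were 1.05 (Abcc3 to Abcc2), 0.59 (Abcc4 to Abcc2), -0.0441 (Abcb11 to Slc10a1), 3.35 (Slco1a4 to Slco1a1) and -3.33 (Slco1a1 to Slco1b2), where 4 pairs cannot give a p under 0.125. The cause of these shifts was not tested. Counting error weighs on the lowest read numbers, 10 reads of Slco1a1 in WD+alcohol 1 and 22 reads of Abcc4 in control 4.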

Other observations

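Beyond the rule for named genes, 3 further carriers had an unadjusted limma-trend p under 0.05 and were chosen after their values were seen. Slc22a3, an organic cation carrier, averaged 6.36 ± 2.26 CPM in WD+alcohol livers and 2.36 ± 1.39 CPM in control livers (SD, n = 5 and 4; limma-trend adjusted p = 0.0679). Slc22a7, the organic anion carrier Oat2, averaged 0.943 ± 0.694 CPM in WD+alcohol livers and 2.56 ± 0.880 CPM in control livers (limma-trend adjusted p = 0.171). Its groups were barely apart, at 1.69 CPM in WD+alcohol 3 and 1.71 CPM in control 4, each from 9 reads, and WD+alcohol 5 held 0 reads. Abcg2, the breast cancer resistance protein of the canalicular membrane, averaged 78.6 ± 4.13 CPM in WD+alcohol livers and 67.7 ± 3.71 CPM in control livers without overlap (limma-trend adjusted p = 0.202). None of the 3 was called by limma-trend or edgeR, and DESeq2 called Slc22a3 alone of them.

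Abcg8, the obligate partner of Abcg5 in the sterol exporter, averaged 53.8 ± 11.8 CPM in WD+alcohol livers and 49.8 ± 9.02 CPM in control livers (limma-trend log2 fold change 0.10 ± 0.15, SE, adjusted p = 0.868), beside the rise of Abcg5. Likewise Abcb1b, the paralog of Abcb1a, averaged 3.13 ± 0.827 CPM in WD+alcohol livers and 3.55 ± 0.305 CPM in control livers (adjusted p = 0.814, limma-trend). The difference between the partners of each pair was not tested.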
